A study of Homo sapiens with 8 samples.

Results

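The G1/S and DNA replication genes described here are 45 genes that a cell uses to pass from G1 into S phase and to copy its DNA. They were chosen by symbol from what is known of this pathway, and all 45 were found among the 18430 genes of the deposited table. By role they comprise 10 genes of origin licensing, 6 of helicase activation, 7 of the DNA polymerases and primase, 8 of the sliding clamp, its loader and strand joining, 4 of nucleotide supply, 5 cyclin E and E2F genes and 5 of chromatin and histone supply.

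In late mitosis and G1, the origin recognition complex, CDC6 and CDT1 load the MCM helicase onto origins. Cyclin E with CDK2, and release of E2F factors from the retinoblastoma protein, then start S phase, in which CDC45 and the GINS complex activate the helicase and polymerases α, δ and ε copy the strands. Many of the genes for these proteins are targets of E2F factors, and CAF-1 and the histone mRNA binding protein SLBP serve the packing of new DNA into chromatin. In the corneal epithelium, division is a property of basal cells, whereas the upper layers have left the cycle.

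The sequenced RNA came from the human corneal epithelial line HCE-T, grown for 7 days as a barrier in the upper channel of a microfluidic chip. For a further day the chips stayed static (ST), stayed static with 50 µM of the anti-inflammatory drug diclofenac in the upper channel (ST_DCF), received cycles of air and liquid flow over the cells, called the AL stimulus (AL), or received both (AL_DCF). All 4 conditions shared the same medium, which held serum, insulin, epidermal growth factor and dimethyl sulfoxide. Each condition had 2 libraries, which the study describes as independent biological samples, while the labels say nothing of separate cultures, so p-values measure the spread between these libraries. HCE-T is a single line immortalised with SV40 large T antigen, a protein known to bind the retinoblastoma family, and this limits it as a model of G1 control.

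Library totals lay between 32880479 and 46369412 counts, and the lowest count of any of the 45 genes in any library was 375. Levels are in CPM, a gene's counts divided by its TMM-scaled library size, and fold changes are log2 values from edgeR's quasi-likelihood test fitted to all 8 libraries. The Benjamini-Hochberg adjustment ran over 17445 genes, and higher or lower in what follows means an adjusted p under 0.05. For 2 libraries against 2, the smallest two-sided p of an exact permutation test is 0.333. The extraction note of the labels names myoblasts, whereas the cell line label names HCE-T. Of 6 myoblast markers, MYOD1, MYF5, MYOG and PAX7 were not among the genes of the table, and DES and MYH3 summed to between 2.18 and 3.31 CPM. Of 10 epithelial markers 8 were in the table, and KRT3 and KRT12, which define corneal epithelium, were not. The summed level of these 8 was 2463 to 2492 CPM for ST, 2606 to 2806 CPM for ST_DCF, 979 to 1016 CPM for AL and 920 to 944 CPM for AL_DCF, so it moved with the stimulus. Of 6 fibroblast markers 4 were in the table and DCN and LUM were not. Their sum was 26.6 and 57.3 CPM in AL and lower in every library of the other conditions, down to 18.7 CPM, and COL1A2 and PDGFRB were higher in the averaged effect of the stimulus. Of 6 endothelial and blood cell markers 4 were in the table, without PTPRC and CD3E. They summed to 62.2 and 63.4 CPM in ST, 79.2 and 89.9 in ST_DCF, 45.3 and 45.9 in AL and 63.8 and 71.7 in AL_DCF, with CD68 and CDH5 lower and PECAM1 higher in the averaged effect. The part of these markers in the results was not tested. In bulk RNA, fewer cells in S phase and less RNA of a gene per cell cannot be told apart.

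A single library stood apart for these genes. Replicate 1 of ST_DCF was the lowest of the 8 libraries for 31 of the 45 genes, whereas 18.1% of all genes tested were lowest there. The 45 genes together took 0.709% of the counts of this library and between 0.786% and 0.812% of the counts of the other 7. Replicate 1 lay below replicate 2 of ST_DCF for 43 of the 45 genes, with a median log2 difference of −0.15 between them. Across all genes the median difference between these libraries was 0.0032 on the log2 scale. At the other end, replicate 2 of AL_DCF was the highest library for 17 of the 45 genes and for 18.5% of all genes tested. Counts of called genes and signed medians over the 45 genes that rest on ST_DCF are therefore also given without its replicate 1.

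**Figure D1:**
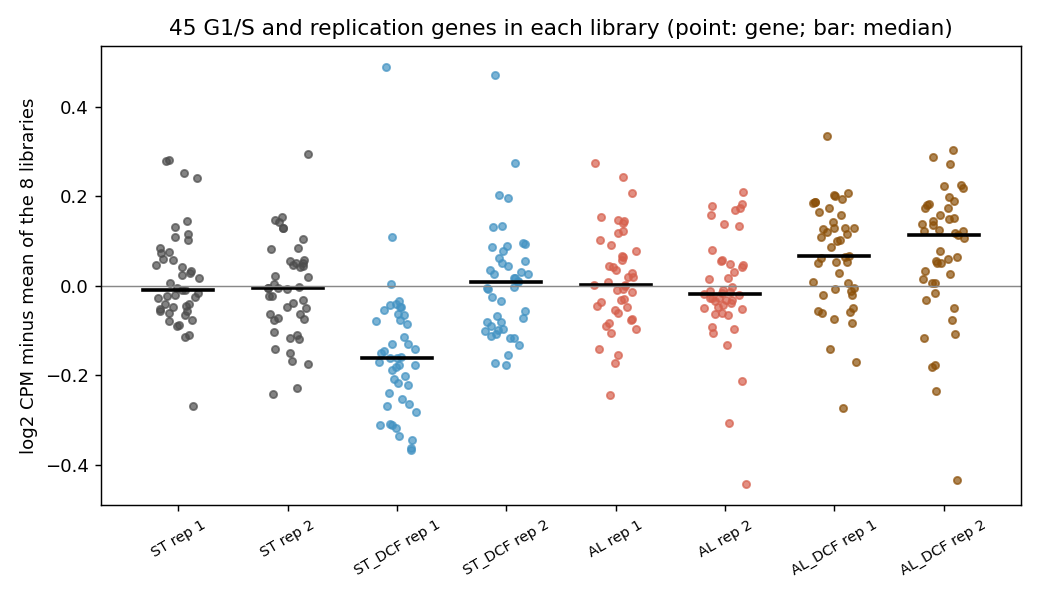
Level of each of the 45 genes in each library, as its log2 CPM minus its mean over the 8 libraries, with a point for each gene, the replicates of each condition side by side and a black bar at the median. The median was −0.16 in replicate 1 of ST_DCF, 0.11 in replicate 2 of AL_DCF and between −0.02 and 0.07 in the other 6 libraries.

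Compared per length, as TPM, these genes were strongly expressed in this line. Their median level over the 8 libraries was 98.3 TPM, against 11.6 TPM for all genes of the table. PCNA, the sliding clamp that tethers polymerases to DNA, had the highest level of the 45 genes at 881 TPM. CCNE1, which encodes cyclin E1, and E2F2, an activating E2F factor, had the lowest, at 15.0 and 15.0 TPM. Among the 6 subunits of the MCM helicase, MCM7 had the highest and MCM6 the lowest TPM in each of the 4 conditions. The ratio of MCM7 to MCM6 was 3.25 for ST, 3.20 for ST_DCF, 3.38 for AL and 3.10 for AL_DCF. In the protein ring each subunit is present in 1 copy. The summed TPM of the 6 subunits was 1515 and 1493 for ST, 1453 and 1521 for ST_DCF, 1393 and 1406 for AL and 1494 and 1516 for AL_DCF, and the 2 libraries of AL had the lowest sums.

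To ask how the AL stimulus changed these genes, it was compared with static culture without the drug, with the drug, and averaged over both drug states. Without the drug, AL against ST, SLBP and both CAF-1 genes CHAF1A and CHAF1B were higher and CCNE1 and E2F8 were lower. This made 3 of 45 genes higher, where 7.63% of all genes tested were called higher, and 2 lower, where 10.3% were called lower. With the drug, AL_DCF against ST_DCF, 14 of 45 genes were higher against 9.38% of all genes, and CCNE1 alone was lower against 11.4%. Averaged over both drug states, 11 of 45 were higher against 15.3% of all genes, and 2, CCNE1 and E2F8, were lower against 16.4%. The 11 were ORC1, MCM10, CDC45, GINS4, POLE2, RFC3, RFC4, TYMS, CHAF1A, CHAF1B and SLBP.

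The changes were small. The log2 fold changes averaged over both drug states ran from −0.64 for CCNE1 to 0.42 for CHAF1A, and none of the 45 genes exceeded 1 in absolute value in any comparison. The median absolute log2 fold change of the averaged effect was 0.11 for the 45 genes and 0.19 for all genes tested. The signed median was 0.06 for the 45 genes and 0.0068 for all genes. It was 0.03 without replicate 1 of ST_DCF and 0.10 without replicate 2. Without the drug the signed median was 0.0056, and with the drug it was 0.13. In all, 29 of the 45 genes were called in no comparison, among them the 6 MCM helicase subunits, PCNA, CDC6, CDT1, E2F1 and RRM2.

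Counted over single libraries, 10 genes were higher in each of the 4 libraries with the AL stimulus than in each of the 4 static libraries. These were the 11 named above without ORC1, and 13.6% of all genes tested did the same. CCNE1 and E2F8 were lower in each of the 4 stimulated libraries, as were 14.7% of all genes, and the other 33 genes overlapped.

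Leaving out 1 library at a time moved these counts. Without replicate 1 of ST_DCF, AL_DCF against ST_DCF had 5 higher and 3 lower genes, and its median was 0.07. The shares of all genes in that fit were 6.47% higher and 8.45% lower, so the table as a whole also had fewer calls. The 5 were CDC45, CHAF1A, MCM10, RFC4 and SLBP, and the 3 were CCNE1, E2F8 and MCM5. Without replicate 2 of ST_DCF it had 19 higher and 1 lower, with a median of 0.22, beside 8.35% and 10.8% of all genes. Without replicate 2 of AL_DCF it had 6 higher and 1 lower, beside 5.45% and 7.92%. It also had 9 higher without replicate 1 of ST, beside 6.33%. In AL against ST, no gene was higher and 1 was lower without either library of ST or either of AL, where 2.76% to 3.18% of all genes were higher and 4.90% to 5.44% lower, and 3 were lower without either library of ST_DCF, beside 11.8%. For the averaged effect, 5 genes were higher without replicate 1 of AL, beside 9.96% of all genes, and 7 without replicate 2 of ST, beside 9.51%, and the other omissions gave 9 to 15. Without replicate 1 of ST_DCF it had 10 higher and 4 lower genes, beside 14.1% and 15.2%, and without replicate 1 of AL_DCF 11 and 3. CDC45, CHAF1A, CHAF1B, RFC4 and SLBP stayed higher and CCNE1 and E2F8 lower in the averaged effect when each of the 8 libraries was left out. With no other libraries in the fit than those of AL_DCF and ST_DCF, CHAF1A was the one gene called higher in that comparison and CCNE1 the one called lower. In that fit 3.28% of all genes were higher and 7.77% lower.

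**Figure D2:**
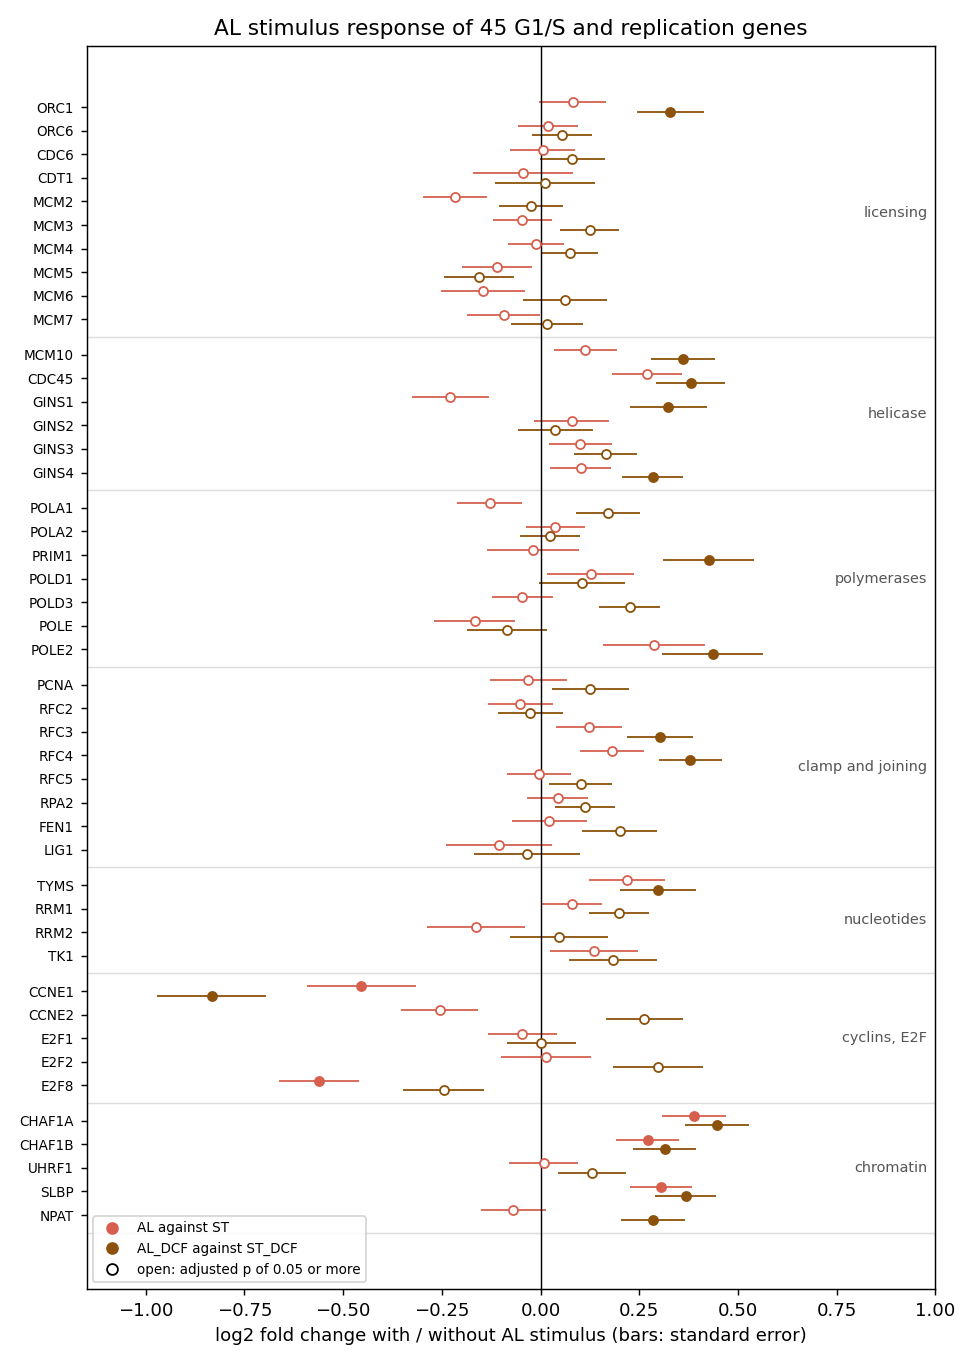
Log2 fold change with the AL stimulus for each of the 45 genes, grouped by role, without the drug (AL against ST) and with it (AL_DCF against ST_DCF), with bars for the standard error from the model and filled points where the adjusted p was under 0.05. Filled points to the right number 3 without and 14 with the drug, and those to the left 2 and 1.

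In the averaged effect 15.3% of all genes were higher and 16.4% lower, and the counts by role that follow stand beside these shares. Origin licensing was the role with the smallest changes, with 1 of its 10 genes higher in the averaged effect and a median absolute log2 fold change of 0.04, beside 0.19 for all genes. ORC1 (gene identifier 4998, chr1:52372829-52409503 on GRCh38.p14), the largest subunit of the origin recognition complex, had 51.5 and 49.3 CPM in ST, 46.6 and 52.3 in ST_DCF, 54.9 and 51.7 in AL and 61.9 and 62.3 in AL_DCF. Both AL_DCF libraries lay above all others, while AL and static libraries overlapped. Its log2 fold change was 0.20 (SE 0.06, adjusted p = 0.0215) averaged, 0.08 (SE 0.08, adjusted p = 0.561) without the drug and 0.33 (SE 0.08, adjusted p = 0.0174) with it. The averaged call was lost without replicate 1 of ST (adjusted p = 0.0644), replicate 2 of ST (0.101), replicate 1 of ST_DCF (0.0594) or replicate 1 of AL (0.0971). The call with the drug was lost without replicate 1 of ST_DCF (0.0988) or replicate 2 of AL_DCF (0.0540).

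CDC6 (990), the ATPase that helps to load the helicase, had 208 and 195 CPM in ST, 197 and 203 in ST_DCF, 209.7 and 195 in AL and 201 and 222 in AL_DCF. These libraries overlapped throughout, and its averaged log2 fold change was 0.04 (SE 0.06, adjusted p = 0.622). The helicase subunit gene MCM2 (4171, chr3:127598411-127622436) had 417 and 431 CPM in ST, 376 and 419 in ST_DCF, 354 and 376 in AL and 401 and 380.4 in AL_DCF. Both AL libraries lay below both ST libraries, whereas AL_DCF overlapped ST_DCF. Its log2 fold change was −0.22 (SE 0.08, adjusted p = 0.0920) without the drug and −0.02 (SE 0.08, adjusted p = 0.868) with it, and neither passed the test. With only the libraries of AL and ST in the fit, the value without the drug passed, at −0.22 (adjusted p = 0.00453). In that fit 17.2% of all genes were lower. The averaged value was −0.12 (SE 0.06, adjusted p = 0.136), and without replicate 1 of ST_DCF it was −0.16 with an adjusted p of 0.0378. For MCM5, another subunit of the ring, the averaged value was −0.13 (SE 0.06, adjusted p = 0.133), and without that library −0.20 with an adjusted p of 0.0142. The averaged log2 fold changes of the other 6 licensing genes lay between −0.04 for MCM6 and 0.04 for MCM3, and none passed the test.

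Helicase activation held 3 genes that were higher in the averaged effect, CDC45, MCM10 and GINS4, out of 6. CDC45 (gene identifier 8318, chr22:19479466-19520612), which joins MCM2-7 and GINS to form the active helicase, had 303 and 297 CPM in ST, 255 and 298 in ST_DCF, 351 and 373 in AL and 369 and 351 in AL_DCF. All 4 stimulated libraries lay above all 4 static ones, from 351 to 373 CPM against 255 to 303 CPM. The averaged log2 fold change was 0.33 (SE 0.06, adjusted p = 0.00212), with 0.27 (SE 0.09, adjusted p = 0.0540) without the drug and 0.38 (SE 0.09, adjusted p = 0.0103) with it.

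MCM10 (55388, chr10:13161558-13211110), a factor needed for the helicase to start moving, had 48.1 and 47.2 CPM in ST, 43.7 and 44.1 in ST_DCF, 53.9 and 49.2 in AL and 56.4 and 56.3 in AL_DCF. The stimulated libraries again lay above the static ones, by a narrow gap between AL replicate 2 and ST replicate 1. Its averaged log2 fold change was 0.24 (SE 0.06, adjusted p = 0.00791), and the call was lost without replicate 1 of AL (adjusted p = 0.0520). GINS4 (84296, chr8:41529261-41545030), a GINS subunit, was higher by 0.19 (SE 0.05, adjusted p = 0.0191). Its call was lost without replicate 1 of ST (adjusted p = 0.0934), replicate 2 of ST (0.0718) or replicate 1 of AL (0.101).

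GINS1 (9837, chr20:25407673-25448563), a subunit of the same complex, behaved otherwise, and its values are given because it had the smallest p of the 45 genes for the interaction of stimulus and drug. It had 51.6 and 52.4 CPM in ST, 39.9 and 45.7 in ST_DCF, 47.5 and 41.3 in AL and 52.1 and 55.0 in AL_DCF. The libraries of ST and AL_DCF all lay above those of ST_DCF and AL. The log2 fold change was −0.23 (SE 0.10, adjusted p = 0.132) without the drug and 0.32 (SE 0.10, adjusted p = 0.0352) with it, and only the latter passed the test. That call was lost without replicate 1 of ST_DCF (adjusted p = 0.193), replicate 2 of AL_DCF (0.132), replicate 1 of ST (0.0713) or replicate 2 of ST (0.0654). The interaction was 0.55 (SE 0.14) with an unadjusted p of 0.00185 and an adjusted p of 0.236. GINS2 and GINS3, the remaining subunits, had averaged values of 0.06 and 0.13, and neither passed the test.

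Among the polymerase and primase genes, 1 of 7 was higher in the averaged effect. POLE2 (gene identifier 5427, chr14:49643555-49688214), the second subunit of polymerase ε, which copies the leading strand, had 20.1 and 18.0 CPM in ST, 17.1 and 19.9 in ST_DCF, 25.7 and 20.8 in AL and 24.2 and 25.9 in AL_DCF. The stimulated libraries lay above the static ones, with replicate 2 of AL only slightly above replicate 1 of ST. The averaged log2 fold change was 0.36 (SE 0.09, adjusted p = 0.0102). This call was lost without replicate 2 of ST (adjusted p = 0.0540) or replicate 1 of AL (0.0606).

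PRIM1 (5557, chr12:56731580-56752323), the catalytic subunit of primase, had 44.3 and 36.1 CPM in ST, 32.3 and 37.5 in ST_DCF, 41.9 and 37.5 in AL and 45.2 and 48.4 in AL_DCF. Both AL_DCF libraries lay above all others, and the other 3 conditions overlapped. Its log2 fold change was 0.43 (SE 0.12, adjusted p = 0.0239) with the drug and −0.02 (SE 0.12, adjusted p = 0.931) without it. The call with the drug was lost without replicate 1 of ST_DCF (adjusted p = 0.143) or replicate 2 of AL_DCF (0.102). POLA1, POLA2, POLD1, POLD3 and POLE, the other polymerase genes, passed the test in no comparison, with averaged values from −0.13 for POLE to 0.12 for POLD1.

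Of the 8 genes of the clamp, its loader, strand protection and joining, RFC3 and RFC4 were higher in the averaged effect. PCNA (5111, chr20:5114953-5126622) had 496 and 501 CPM in ST, 442 and 509 in ST_DCF, 491 and 485 in AL and 474 and 564 in AL_DCF. Its lowest library was replicate 1 of ST_DCF and its highest replicate 2 of AL_DCF, and the conditions overlapped. The averaged log2 fold change was 0.05 (SE 0.07, adjusted p = 0.645), with a 95% interval from −0.10 to 0.20. RFC4 (5984, chr3:186789900-186806482), a subunit of the complex that opens and loads the clamp, had 89.7 and 84.5 CPM in ST, 84.3 and 88.0 in ST_DCF, 99.9 and 97.5 in AL and 106 and 118 in AL_DCF. All stimulated libraries lay above all static ones, and AL_DCF lay above AL. The averaged value was 0.28 (SE 0.06, adjusted p = 0.00314), with 0.18 (SE 0.08, adjusted p = 0.152) without the drug and 0.38 (SE 0.08, adjusted p = 0.00671) with it.

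RFC3 (5983, chr13:33818149-33977377), another loader subunit, had 68.7 and 61.6 CPM in ST, 61.4 and 65.4 in ST_DCF, 72.0 and 69.9 in AL and 75.6 and 80.8 in AL_DCF. Its averaged value was 0.21 (SE 0.06, adjusted p = 0.0171), and the call was lost without replicate 2 of ST (adjusted p = 0.104) or replicate 1 of AL (0.0706). RFC2 and RFC5, which belong to the same loader, had averaged values of −0.04 (SE 0.06, adjusted p = 0.662) and 0.05 (SE 0.06, adjusted p = 0.562). On the TPM scale RFC2 was the highest of the 4 small loader genes in ST and ST_DCF, whereas RFC4 was the highest in AL and AL_DCF. FEN1, which trims Okazaki fragments, LIG1, which joins them, and RPA2, a subunit of the single-strand binding protein, had averaged values of 0.11, −0.07 and 0.08, and none passed the test.

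Nucleotide supply had 1 gene of 4 that was higher. TYMS (gene identifier 7298, chr18:657653-673578), which makes thymidylate, had 241 and 246 CPM in ST, 197 and 233 in ST_DCF, 289 and 279 in AL and 246 and 282 in AL_DCF. The lowest stimulated library, replicate 1 of AL_DCF, and the highest static library, replicate 2 of ST, were almost level, and the stimulated and static libraries did not overlap. Its averaged log2 fold change was 0.26 (SE 0.07, adjusted p = 0.0132). The call was lost without replicate 1 of ST (adjusted p = 0.0644) or replicate 1 of AL (0.0566).

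RRM2 (6241, chr2:10122568-10211010), the small subunit of ribonucleotide reductase, had 691 and 647 CPM in ST, 455 and 617 in ST_DCF, 617 and 577 in AL and 519 and 587 in AL_DCF. Both ST libraries were the highest, and replicate 1 of ST_DCF was the lowest by a wide margin. The averaged effect of the stimulus was −0.06 (SE 0.09, adjusted p = 0.652). This was −0.16 without replicate 1 of ST_DCF and 0.06 without replicate 2, of opposite sign, and neither passed the test. For the drug in static culture it was −0.32 (SE 0.12, adjusted p = 0.445), with an unadjusted p of 0.0253, and without replicate 1 of ST_DCF it was −0.11. The ratio of RRM2 to RRM1, the large subunit, was 2.54 ± 0.103 for ST, 2.02 ± 0.317 for ST_DCF, 2.15 ± 0.0541 for AL and 1.83 ± 0.123 for AL_DCF, as a ratio of TPM (SD, n = 2). Both ST libraries had a higher ratio than any other library, and no test was run on it. RRM1 and TK1, the thymidine kinase of S phase, had averaged values of 0.14 (SE 0.05, adjusted p = 0.0701) and 0.16 (SE 0.08, adjusted p = 0.146).

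The cyclin E and E2F genes were the only role in which calls went down, with CCNE1 and E2F8 lower and the other 3 of 5 not called. CCNE1 (gene identifier 898, chr19:29811991-29824312), which encodes cyclin E1, the partner of CDK2 at S phase entry, had 14.4 and 12.8 CPM in ST, 17.0 and 16.8 in ST_DCF, 11.0 and 8.92 in AL and 10.0 and 8.97 in AL_DCF. All 4 stimulated libraries lay below all 4 static ones, and ST_DCF was the highest condition. The log2 fold change was −0.64 (SE 0.10, adjusted p = 4.5e-04) averaged, −0.45 (SE 0.14, adjusted p = 0.0420) without the drug and −0.83 (SE 0.14, adjusted p = 0.00143) with it. Without the drug the call was lost on leaving out either library of ST (adjusted p = 0.264 and 0.0924) or of AL (0.0517 and 0.306).

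CCNE2 (9134, chr8:94880224-94896693), the gene of the second E-type cyclin, had 56.7 and 51.5 CPM in ST, 37.4 and 43.0 in ST_DCF, 47.3 and 43.4 in AL and 46.2 and 50.2 in AL_DCF. ST was the highest condition and ST_DCF held the 2 lowest libraries, in contrast to CCNE1, for which ST_DCF was the highest. Its log2 fold changes with the stimulus were −0.26 (SE 0.10, adjusted p = 0.0966) without the drug and 0.26 (SE 0.10, adjusted p = 0.0806) with it, of opposite sign, and neither passed the test. With only the libraries of AL and ST in the fit, the value without the drug passed, at −0.26 (adjusted p = 0.0132). In that fit 17.2% of all genes were lower. The interaction was 0.52 (SE 0.14, unadjusted p = 0.00300, adjusted p = 0.252). The ratio of CCNE2 to CCNE1 on the TPM scale was 2.72 ± 0.0874 for ST, 1.62 ± 0.154 for ST_DCF, 3.19 ± 0.310 for AL and 3.50 ± 0.496 for AL_DCF (SD, n = 2). The 2 libraries of ST_DCF had the lowest ratios, and no test was run on them.

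E2F8 (79733, chr11:19224063-19241655), an E2F factor that represses E2F targets, had 56.8 and 57.4 CPM in ST, 45.3 and 56.6 in ST_DCF, 39.5 and 37.8 in AL and 42.5 and 43.5 in AL_DCF. The stimulated libraries lay below the static ones, and the smallest gap was between replicate 2 of AL_DCF and replicate 1 of ST_DCF. Its averaged log2 fold change was −0.40 (SE 0.07, adjusted p = 0.00140), with −0.56 (SE 0.10, adjusted p = 0.00297) without the drug and −0.25 (SE 0.10, adjusted p = 0.114) with it. The value with the drug passed the test without replicate 1 of ST_DCF, at −0.40 with an adjusted p of 0.0139.

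E2F1 (1869, chr20:33675477-33686385), an activating E2F factor, had 259.8 and 266 CPM in ST, 259.5 and 293 in ST_DCF, 248 and 261 in AL and 292 and 261 in AL_DCF. These libraries overlapped in all conditions, and the averaged value was −0.02 (SE 0.06, adjusted p = 0.822) with a 95% interval from −0.16 to 0.11. E2F2, a second activator, had an averaged value of 0.16 (SE 0.08, adjusted p = 0.167).

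Chromatin and histone supply had the largest share of calls, with 3 of 5 genes higher in the averaged effect, CHAF1A, CHAF1B and SLBP. CHAF1A (gene identifier 10036, chr19:4402640-4450830), the large subunit of the CAF-1 complex that places histones on newly copied DNA, had 108 and 111 CPM in ST, 110.1 and 121 in ST_DCF, 143 and 143 in AL and 164 and 152 in AL_DCF. The stimulated libraries lay above the static ones with a wide gap. The averaged log2 fold change was 0.42 (SE 0.06, adjusted p = 2.0e-04), with 0.39 (SE 0.08, adjusted p = 0.00641) without the drug and 0.45 (SE 0.08, adjusted p = 0.00251) with it. Without the drug the call was lost on leaving out either library of ST (adjusted p = 0.0817 and 0.0554) or of AL (0.0528 and 0.0537), while with the drug it held without each of the 8 libraries.

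CHAF1B (8208, chr21:36385392-36419015), the middle subunit of the same complex, had 73.1 and 71.8 CPM in ST, 66.5 and 74.9 in ST_DCF, 88.0 and 86.9 in AL and 87.5 and 88.4 in AL_DCF. The 4 stimulated libraries lay within 86.9 to 88.4 CPM and the static ones within 66.5 to 74.9 CPM. Its averaged value was 0.29 (SE 0.06, adjusted p = 0.00223), with 0.27 (SE 0.08, adjusted p = 0.0359) without the drug and 0.31 (SE 0.08, adjusted p = 0.0166) with it. The call with the drug was lost without replicate 1 of ST_DCF (adjusted p = 0.0946) or replicate 2 of AL_DCF (0.0526). Without the drug it was lost without either library of ST or of AL, with adjusted p from 0.149 to 0.208. The ratio of CHAF1A to CHAF1B on the TPM scale was 1.95 and 2.02 for ST, 1.95 and 2.04 for ST_DCF, 1.98 and 2.13 for AL, and 2.46 and 2.14 for AL_DCF, and only the AL_DCF libraries lay above the rest, by a narrow margin.

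SLBP (7884, chr4:1692731-1712319), which binds the stem-loop of histone mRNAs and is needed for their processing and translation, had 91.4 and 89.2 CPM in ST, 77.6 and 85.2 in ST_DCF, 114 and 109 in AL and 105 and 105 in AL_DCF. The stimulated libraries lay above the static ones, and AL above AL_DCF. Its averaged value was 0.34 (SE 0.05, adjusted p = 7.4e-04), with 0.31 (SE 0.08, adjusted p = 0.0185) without the drug and 0.37 (SE 0.08, adjusted p = 0.00648) with it. The call without the drug was lost without either library of ST (adjusted p = 0.115 and 0.151) or of AL (0.140 and 0.0775).

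NPAT (4863, chr11:108157215-108222638), a cyclin E-CDK2 substrate that activates histone gene transcription, had 125 and 114 CPM in ST, 98.9 and 104 in ST_DCF, 114 and 113 in AL and 118 and 129 in AL_DCF. The ST_DCF libraries were the lowest and the rest overlapped. It was called in AL_DCF against ST_DCF only, at 0.28 (SE 0.08, adjusted p = 0.0299), against −0.07 (SE 0.08, adjusted p = 0.612) without the drug. That call was lost without replicate 1 of ST_DCF (adjusted p = 0.117) and without 5 other libraries. UHRF1, which carries DNA methylation over to the new strand, had an averaged value of 0.07 (SE 0.06, adjusted p = 0.430).

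**Figure D3:**
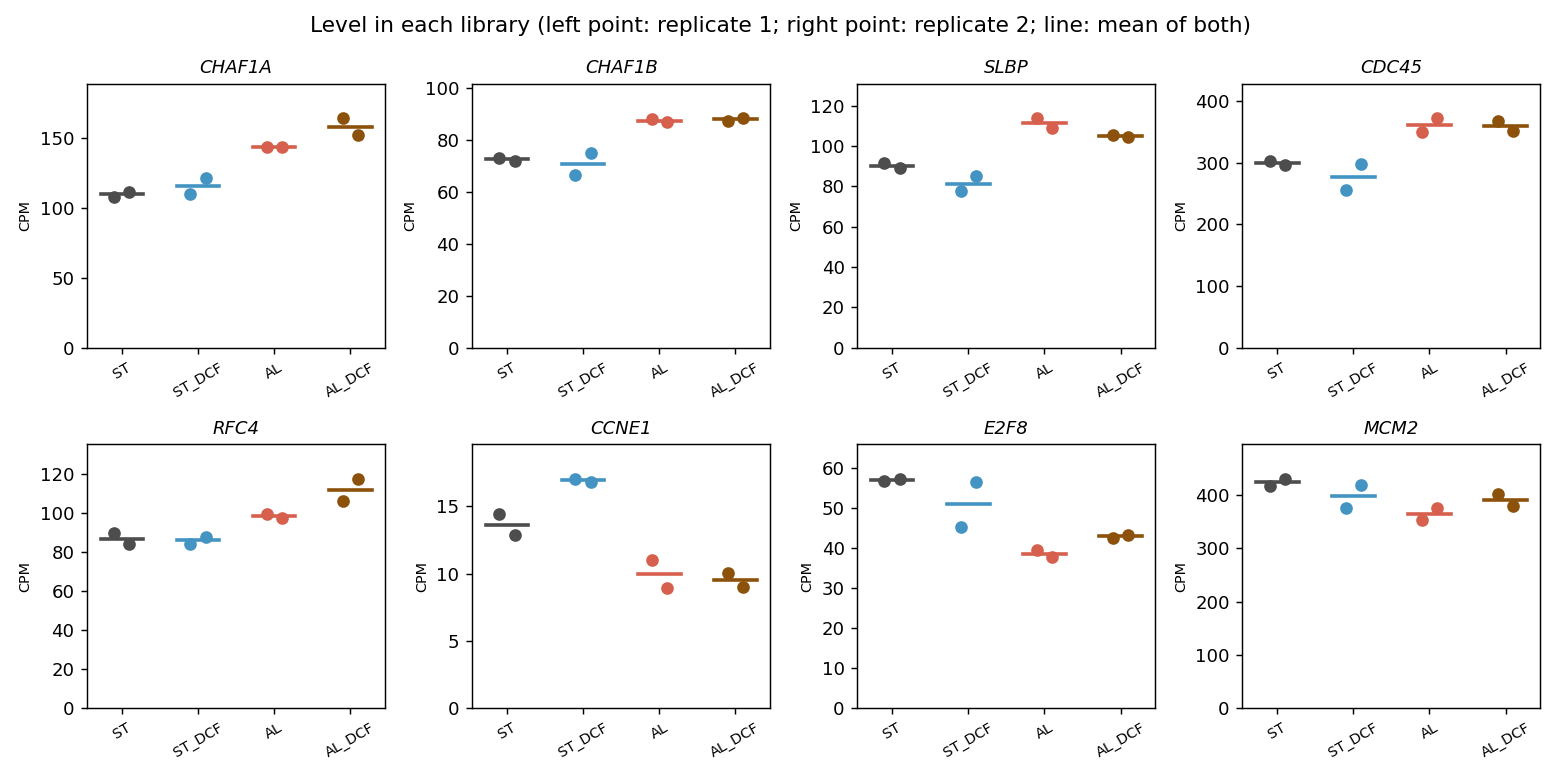
Level in CPM, on an axis from 0, of 8 of the genes in each of the 8 libraries, with 2 points and a line at their mean for each condition. For CHAF1A, CHAF1B, SLBP, CDC45 and RFC4 the AL and AL_DCF points lie above the ST and ST_DCF points, for CCNE1 and E2F8 below them, and for MCM2 they overlap.

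To ask what the drug did, ST_DCF was compared with ST and AL_DCF with AL. None of the 45 genes passed the test in ST_DCF against ST, where 0.00573% of all genes were called higher and 0% lower. In that comparison 7 of the 45 had an unadjusted p under 0.05, and DESeq2 called 1 gene, CCNE2, lower, beside 0.132% of all genes. For all comparisons of the drug, the share of all genes at such a p, or above 0, was not counted. The quasi-likelihood value of CCNE2 was −0.43 (SE 0.10, adjusted p = 0.301). Without replicate 2 of ST_DCF, the values were −0.53 for CCNE2 and −0.56 for RRM2. Replicate 1, the library that stood apart, is then alone in that condition. Without replicate 1 the values were −0.33 for CCNE2 and −0.11 for RRM2. The median log2 fold change of the 45 genes was −0.06, with 12 of them above 0, beside −0.0014 for all genes. Its direction turned with the library left out, to 0.03 with 28 genes above 0 without replicate 1 of ST_DCF, and it was −0.17 with 5 above 0 without replicate 2.

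With the stimulus, in AL_DCF against AL, again none of the 45 passed, where 0.103% of all genes were called higher and 0.252% lower. Here 4 had an unadjusted p under 0.05, DESeq2 called none, and the median was 0.09 with 33 genes above 0, beside 0.0069 for all genes. Averaged over both stimulus states none passed either, beside 0.0287% of all genes higher and 0.0974% lower, with 2 genes at an unadjusted p under 0.05 and none called by DESeq2. The median of this average was 0.0021, against 0.04 without replicate 1 of ST_DCF and −0.05 without replicate 2. In this average RRM2 was −0.33 without replicate 2 of ST_DCF, a fit in which replicate 1 is alone in that condition.

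The interaction, the difference between the stimulus effect with and without the drug, asks whether the 2 responses differed. No gene of the 45 passed it, where 0% of all genes were called above 0 and 0.0344% below, and DESeq2 called none. At an unadjusted p under 0.05 there were 7, NPAT, POLA1, PRIM1, CCNE2, GINS1, POLD3 and E2F8. All of these were positive, as were 40 of the 45 genes, and the median was 0.11, beside 0.0072 for all genes. The share of all genes above 0 was not counted. For no comparison was the share of all genes at an unadjusted p under 0.05 in the quasi-likelihood test counted. Without replicate 1 of ST_DCF 30 of the 45 were positive, with a median of 0.04, beside 0.0083 for all genes. Without replicate 2 it was 44, with a median of 0.22, beside 0.013 for all genes. In the fit to all libraries the smallest adjusted p was 0.236 for GINS1. The interaction contains ST_DCF replicate 1, the lowest library for most of these genes, and without either library of ST_DCF it still had no gene past the test. The 3 genes called in AL against ST as higher and the 14 called with the drug are thus not shown to differ between drug states.

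AL_DCF was also compared with ST, the contrast of both treatments with neither. CHAF1A, CHAF1B, ORC1, RFC3 and RFC4 were higher, 5 of 45 beside 8.49% of all genes, and CCNE1 and E2F8 were lower, 2 of 45 beside 9.83%. This comparison and AL against ST share the ST libraries. Side by side, CHAF1A had 0.53 in AL_DCF and 0.39 in AL, and RFC4 had 0.36 and 0.18. CCNE1 had −0.52 and −0.45, and E2F8 had −0.41 and −0.56. With each of the 8 libraries left out in turn, CHAF1A alone of these 7 genes was called in every fit, at 0.47 to 0.58. The values ran from 0.29 to 0.43 for RFC4, 0.19 to 0.34 for RFC3, 0.27 to 0.33 for ORC1 and 0.27 to 0.29 for CHAF1B. They ran from −0.60 to −0.44 for CCNE1 and from −0.43 to −0.39 for E2F8. The shares of all genes called also moved in these fits.

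Promoter sequence was read for these genes because E2F factors, which act on many of them, bind a known motif. RefSeq windows on GRCh38.p14, the build of all positions given here, from 250 bases before to 50 bases after the gene start, were at hand for 38 of the 45 genes, in 48 windows since some genes have several starts, and without MCM4, MCM5, GINS4, POLD3, RPA2, CCNE2 and E2F8. The E2F-type motif TTTNGCGC was searched on both strands, with overlapping matches merged. It was found in at least 1 window of 16 of the 38 genes, 42.1%, against 2.17% of 27305 genes with windows of the same length and 2.94% of the 15843 protein-coding genes among them, counted in the same way. By window, 16 of the 48 held it, 33.3%, against 1.79% of all 35116 windows. The CCAAT box, bound by NF-Y and also searched on both strands, was found for 22 genes, 57.9%, against 39.7% of all genes. The sequence TTTGAA, known from promoters of genes expressed in G2 and mitosis, was found for 1 gene, 2.63%, against 18.2% of all genes.

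The stretches below hold the E2F-type match, in capitals, with up to 26 bases on each side, read 5′ to 3′ along the strand of the gene. MCM6 has 2 separate matches, each of which reads as the motif on both strands, as does that of E2F2. POLE2 is the one gene with a match among those called in the averaged effect. It has 2 separate matches, and the second, which spans the gene start, is not printed.
MCM6 (chr2:135876558-135876621, minus strand): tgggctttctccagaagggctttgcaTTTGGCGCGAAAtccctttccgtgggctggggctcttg
MCM6 (chr2:135876496-135876559, minus strand): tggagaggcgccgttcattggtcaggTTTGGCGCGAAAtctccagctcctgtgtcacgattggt
E2F2 (chr1:23531238-23531301, minus strand): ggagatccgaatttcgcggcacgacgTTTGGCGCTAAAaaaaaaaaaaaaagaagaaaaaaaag
E2F1 (chr20:33686386-33686431, minus strand): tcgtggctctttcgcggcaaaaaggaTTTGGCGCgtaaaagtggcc
POLA1 (chrX:24693755-24693814, plus strand): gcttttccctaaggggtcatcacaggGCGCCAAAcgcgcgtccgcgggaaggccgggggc
CDT1 (chr16:88803550-88803609, plus strand): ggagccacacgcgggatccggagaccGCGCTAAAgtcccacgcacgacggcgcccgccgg
POLE2 (chr14:49688262-49688321, minus strand): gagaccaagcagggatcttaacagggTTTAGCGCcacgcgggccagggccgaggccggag

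Set beside the expression values, 1 of the 11 genes with windows that were called in the averaged effect of the stimulus had the E2F-type motif, and 15 of the 27 genes not called. The 15 included MCM2, MCM3, MCM6 and MCM7, CDC6, CDT1, E2F1, E2F2 and UHRF1. The windows of CCNE1, CHAF1A, CHAF1B, SLBP and CDC45 did not contain these letters. This is a description of letters in a short window, and binding was not measured.

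The other genes of the pathway were described from lists of 89 genes. For these, and for the genes of G2 and mitosis below, no interaction is given. A call in 1 drug state alone does not show that the responses differed. In the averaged effect of the stimulus 24 of the 89 were higher and 8 lower, beside the 15.3% and 16.4% of all genes given above. In AL against ST 8 were higher and 6 lower, beside 7.63% and 10.3% of all genes. In AL_DCF against ST_DCF 20 were higher and 4 lower, beside 9.38% and 11.4%. Without replicate 1 of ST_DCF fewer of the 89 were higher in the averaged effect and in AL_DCF against ST_DCF, and more in AL against ST. Without a library of ST or AL fewer were higher in each of these comparisons. Without replicate 2 of AL_DCF fewer were higher in AL_DCF against ST_DCF. In all of these fits the share of all genes called higher moved in the same direction.

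Among 25 regulators of G1 and of E2F activity, 6 were higher and 4 lower in the averaged effect, beside 15.3% and 16.4% of all genes. The D-type cyclin genes CCND2 and CCND1 had the largest changes. CCND1 (595), the cyclin that activates CDK4 and CDK6 in G1, had 259 and 268 CPM in ST, 331 and 266 in ST_DCF, 125 and 107 in AL and 122 and 127 in AL_DCF. All stimulated libraries lay far below all static ones, and the averaged log2 fold change was −1.22 (SE 0.08, adjusted p = 4.9e-07). CCND2 (894), a related cyclin at a low level, had 5.17 and 3.75 CPM in ST, 5.47 and 3.82 in ST_DCF, 0.805 and 0.642 in AL and 0.851 and 0.744 in AL_DCF, with an averaged value of −2.58 (SE 0.20, adjusted p = 2.6e-06). CCND3, the remaining D-type cyclin, had −0.16 (SE 0.07, adjusted p = 0.113). The kinase gene CDK6 was lower, at −0.53 (SE 0.10, adjusted p = 0.00210), and was called without the drug and not with it. E2F5, a repressive E2F factor, was lower at −0.38 (SE 0.13, adjusted p = 0.0419), and that call held in 1 of 8 fits that left out a library, with adjusted p up to 0.136 without replicate 2 of ST.

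RB1 (5925), the retinoblastoma gene, had 100.3 and 99.6 CPM in ST, 83.5 and 86.3 in ST_DCF, 144 and 131 in AL and 129 and 140.2 in AL_DCF. Stimulated libraries were higher without overlap, and the averaged value was 0.56 (SE 0.06, adjusted p = 2.2e-05). TFDP1 (7027), the partner that E2F factors need to bind DNA, had 201 and 201 CPM in ST, 199 and 206 in ST_DCF, 242 and 247 in AL and 248 and 246 in AL_DCF, with 0.29 (SE 0.05, adjusted p = 0.00127). MYC, a growth-promoting transcription factor, had −0.04 (SE 0.13, adjusted p = 0.860).

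Of 8 CDK inhibitor genes, 4 were higher in the averaged effect and none was lower, beside 15.3% and 16.4% of all genes. CDKN2C (1031), which encodes p18, an inhibitor of CDK4 and CDK6, had 24.7 and 30.1 CPM in ST, 24.8 and 32.7 in ST_DCF, 50.4 and 51.4 in AL and 43.9 and 41.5 in AL_DCF. CDKN2D (1032), which encodes p19 of the same family, had 28.7 and 34.3 CPM in ST, 31.3 and 35.4 in ST_DCF, 46.5 and 52.4 in AL and 46.9 and 43.5 in AL_DCF. For both, every stimulated library lay above every static one, with averaged values of 0.73 (SE 0.09, adjusted p = 1.1e-04) and 0.54 (SE 0.08, adjusted p = 3.1e-04). CDKN1B, the gene of p27, an inhibitor of cyclin E-CDK2, had 0.28 (SE 0.06, adjusted p = 0.00372), and CDKN3, a phosphatase that acts on CDK2, had 0.28 (SE 0.06, adjusted p = 0.00650). CDKN1B and CDKN3 were called without the drug and not with it. That call held in 6 of 8 fits that left out a library for CDKN1B and in 4 of 8 for CDKN3. CDKN1A (1026), the gene of p21, had 856 and 876 CPM in ST, 706 and 769 in ST_DCF, 704 and 746 in AL and 726 and 784 in AL_DCF. ST was its highest condition, and it was lower in AL against ST at −0.26 (SE 0.08, adjusted p = 0.0458) but not in AL_DCF against ST_DCF at 0.03 (SE 0.08, adjusted p = 0.808). Its call was lost without either library of ST (adjusted p = 0.188 and 0.253) or of AL (0.285 and 0.141).

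**Figure D4:**
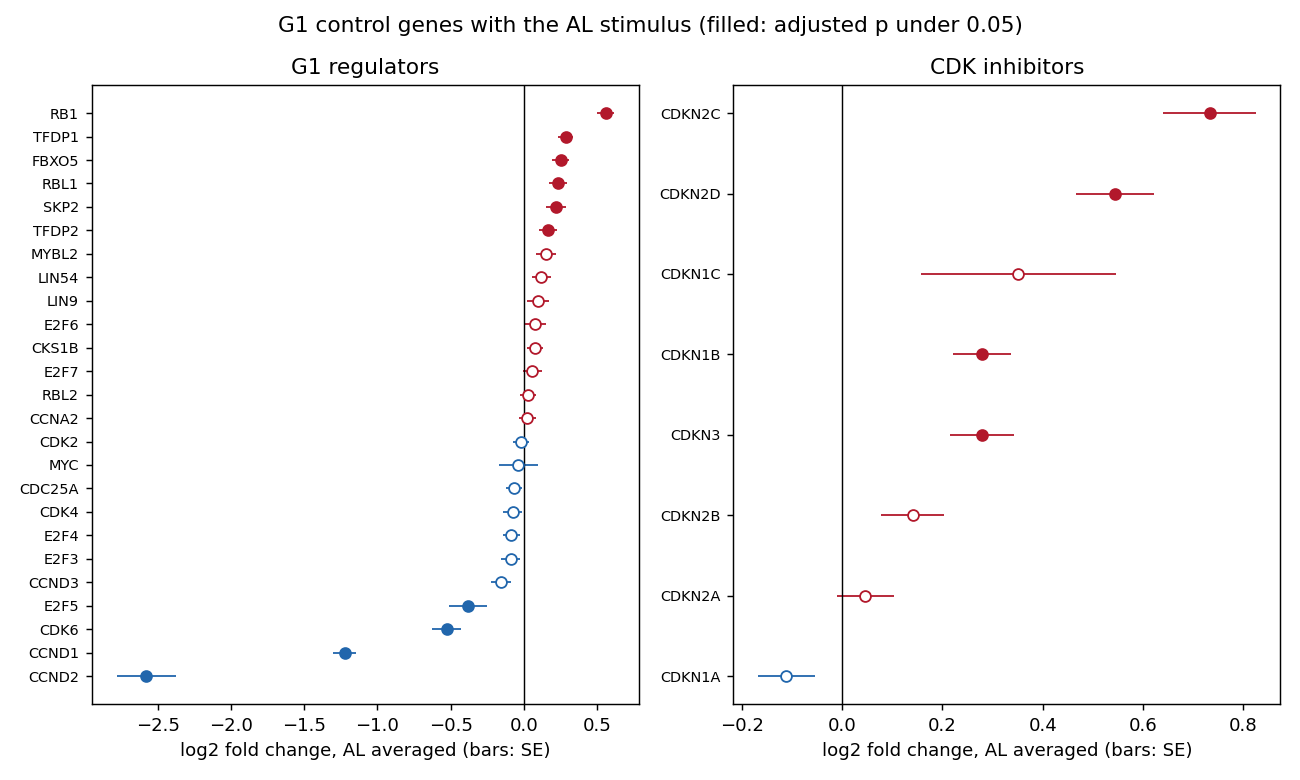
Log2 fold change with the AL stimulus, averaged over both drug states, of 25 G1 regulators (left) and 8 CDK inhibitors (right, on a narrower scale), with bars for the standard error and filled points where the adjusted p was under 0.05. CCND2 and CCND1 lie farthest to the left, at −2.58 and −1.22, RB1 farthest to the right among the regulators at 0.56, and CDKN2C among the inhibitors at 0.73.

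Of 39 other replication factors 7 were higher and 3 lower in the averaged effect, beside 15.3% and 16.4% of all genes. ORC4, a subunit of the origin recognition complex, had 0.33 (SE 0.06, adjusted p = 0.00245), RPA1, the large subunit of the single-strand binding protein, 0.24 (SE 0.06, adjusted p = 0.00877), and EXO1, an exonuclease, 0.25 (SE 0.06, adjusted p = 0.00672). ORC4, RPA1 and EXO1 were called with the drug and not without it. The averaged call of RPA1 was lost without replicate 1 of AL. With the drug its call held in 2 of 8 fits that left out a library, that of ORC4 in 7 and that of EXO1 in 8. POLD4, the smallest subunit of polymerase δ, was lower, at −0.41 (SE 0.07, adjusted p = 9.2e-04), and was called without the drug and not with it. Of 17 other genes of nucleotide supply and chromatin replication, 7 were higher and 1 lower, beside the same shares of all genes. RBBP4, the small subunit of CAF-1, had 0.21 (SE 0.05, adjusted p = 0.0111), so that all 3 CAF-1 genes were higher in the averaged effect. DNMT1, the maintenance DNA methyltransferase, had 0.20 (SE 0.05, adjusted p = 0.0158), and DCTPP1, which removes unwanted nucleotides, was lower at −0.33 (SE 0.06, adjusted p = 0.00204). DNMT1 and DCTPP1 were called with the drug and not without it, and RBBP4 in neither of these comparisons. The averaged call of RBBP4 was lost without replicate 1 of ST or of AL. That of DNMT1 was lost without either library of ST or without replicate 2 of AL. With the drug, the call of DNMT1 held in 2 of 8 fits that left out a library, and that of DCTPP1 in 7.

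For reference, 12 genes of G2 and mitosis were read in the same way. In the averaged effect 4 were higher and 1 lower, beside 15.3% and 16.4% of all genes. TOP2A, the topoisomerase of dividing cells, had 0.31 (SE 0.07, adjusted p = 0.00470), BIRC5, a subunit of the chromosomal passenger complex, 0.30 (SE 0.06, adjusted p = 0.00196), and AURKA, a mitotic kinase, 0.24 (SE 0.05, adjusted p = 0.00505). BIRC5 was called without the drug and with it, whereas TOP2A and AURKA were called without it only. In fits that left out a library, the call of BIRC5 held in 4 of 8 without the drug and in 1 of 8 with it. Without the drug, that of TOP2A held in 4 of 8 and that of AURKA in all 8. For AURKA without the drug, the values were 0.44 to 0.53 when each library was left out. PLK1, also a mitotic kinase, was lower, with −0.24 (SE 0.06, adjusted p = 0.00777) averaged, but 0.10 (SE 0.08, adjusted p = 0.471) without and −0.58 (SE 0.08, adjusted p = 4.9e-04) with the drug. Its averaged call was lost without replicate 1 of AL (adjusted p = 0.0504). MKI67, the proliferation marker Ki-67, had 444 and 438 CPM in ST, 428 and 366 in ST_DCF, 363 and 369.8 in AL and 399 and 433 in AL_DCF. Both AL libraries lay below both ST libraries, whereas AL_DCF overlapped ST_DCF. The averaged value of MKI67 was −0.10 (SE 0.06, adjusted p = 0.252).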

How the data were processed

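RNA from HCE-T cells of 4 conditions was sequenced by the authors in 2 libraries each with a stranded mRNA kit. According to the submitters' processing notes and the study's methods, reads were checked with FastQC 0.11.7 and trimmed with Trimmomatic 0.38 and aligned with HISAT2 2.1.0 to the GRCh38 genome, and StringTie 2.1.3b assembled and counted transcripts. The notes also list Bowtie2, version 2.3.5.1. The deposited table holds, for 18430 genes with at least 1 count in every library, raw read counts as made by the authors. The FPKM values deposited beside them are scaled to transcript length and library size, and the deposited TPM values are scaled to length and a fixed total. Columns with normalized log2 values and with the authors' fold changes, p-values and adjusted p-values were not used.

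The 45 genes and the other lists were chosen with earlier results of these data known. The count analysis used edgeR 4.0.16 under R 4.3.3, with filterByExpr by condition, TMM factors and 1 quasi-likelihood fit of 4 conditions to 8 libraries without a replicate block (4 residual and 7.50 prior degrees of freedom, biological coefficient of variation 9.48%). Unless another tool is named, adjusted p-values are from edgeR's quasi-likelihood test, by Benjamini-Hochberg over the 17445 genes tested. The averaged effect is the mean of the stimulus contrasts without and with the drug. Levels per length are the authors' TPM. Library totals were 32880479 to 46369412 counts. For the 45 genes, counting noise was not set apart from the replicate spread.

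Values of every library are given for called members, with up to 8 of the largest fold changes in each direction per comparison, for the member with the smallest p of each role, and for MCM2, PCNA, CCNE1, CCNE2, CDC6, RRM2, TYMS, E2F1, SLBP and NPAT. Of the other lists up to 4 genes with the smallest p are named, and CDKN1A, CDKN1B, CCND1, MYC and MKI67. Of these genes 1 is counted in its list and not reported here. GINS1, RFC3, MCM5, CCND3, CDK6 and E2F5 were given values after these had been seen. Gene positions and promoter windows come from RefSeq, GRCh38.p14. The procedure was tested on simulated data. Alternatives were RLE size factors, no low-count filter, DESeq2 1.42.0, a fit to only the compared libraries, the study's edgeR exact test at its thresholds (unadjusted p under 0.05 and a fold of 2), the replicate number as a block, limma 3.58.1 on log2 of FPKM plus 1, and leaving out each library. Chosen after seeing the data were a fit without scaling factors and a crossed block.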

Additional observations from a re-analysis of the deposited data

How the results depend on the processing

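No call of the 45 genes turned its direction under any alternative. For the averaged effect of the stimulus, RLE factors, no low-count filter, DESeq2, the replicate block, limma on FPKM and no scaling factors gave 11 to 14 higher genes and 2 lower. Of all genes 13.6% to 15.4% were higher and 13.8% to 16.5% lower in these fits. The fit to the compared libraries alone gave 6 higher and 6 lower in AL against ST, beside 15.4% and 17.2% of all genes. The 6 higher were CDC45, CHAF1A, CHAF1B, RFC4, SLBP and TYMS, and the 6 lower CCNE1, CCNE2, E2F8, GINS1, MCM2 and RRM2. In AL_DCF against ST_DCF a fit of this kind gave 1 higher and 1 lower, beside 3.28% and 7.77%. The exact test at a fold of 2 gave 0 in both directions in all 5 comparisons of 1 condition with another, since no gene of the 45 changed by that much. Of all genes it called 0.396% to 2.36% higher and 0.613% to 5% lower. Lower genes numbered 1 in AL against ST without a low-count filter and with limma, beside 8.74% and 7.37% of all genes. They numbered 1 in AL_DCF against ST with limma, beside 7.53%. DESeq2 called 1 gene lower in ST_DCF against ST, beside 0.132% of all genes. Leaving out 1 library gave 0 to 4 higher and 1 to 3 lower genes in AL against ST, 5 to 19 and 1 to 3 in AL_DCF against ST_DCF, 5 to 15 and 2 to 4 in the averaged effect, and 1 to 11 and 0 to 3 in AL_DCF against ST. In ST_DCF against ST it gave 0 to 2 lower genes and in the averaged effect of the drug 0 to 1. Fewer samples remain in these fits, the shares of all genes moved in them too, and the cause was otherwise not tested.

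The labels give same-numbered libraries nothing in common but the number. The deviations of same-numbered libraries correlated between conditions at −0.102 to 0.0985. With 2 libraries a condition, this cannot show whether they shared a culture or run. With the replicate number as a block, 2 higher and 2 lower genes were called in AL against ST, beside 7.08% and 9.63% of all genes. In AL_DCF against ST_DCF it was 14 and 1, beside 8.35% and 10.8%. Averaged it was 11 and 2, beside 14.3% and 15.6%, and in AL_DCF against ST 4 and 2, beside 7.58% and 9.33%. Because the correlation between ST and AL_DCF was −0.102, a crossed block was added after seeing the data. It gave 8 higher and 2 lower genes in AL_DCF against ST, beside 9.25% and 10.4% of all genes.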
